A study of Mus musculus with 6 samples.

Results

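Zfp36, Zfp36l1, Zfp36l2, Ier2, Ier3, Ier5, Btg1, Btg2, Gadd45a and Gadd45b are grouped here as early response genes. The Zfp36 genes act in messenger RNA decay and the Btg and Gadd45 genes in growth arrest, and the Ier genes are set beside them. All are described in mouse taste cells of 2 ages. The 10 genes were chosen on their values in this same comparison of ages together with their known roles, and they are 10 of the 23361 genes in the deposited table. Their values are therefore a description, and no test was made on them. Taste cells were freed with enzymes from the circumvallate and foliate (CV/Fol) papillae of C57BL/6 mice aged 2 months or 6 months. Each age had 3 RNA libraries, and each library held cells pooled from several mice. By the paper's methods a pool held fewer mice at 6 months than at 2 months, so pool size differed with age. The deposited table gives a single value per gene and age, in FPKM (fragments mapped to a gene, corrected for transcript length and for the reads mapped in the library), which is an estimate over all libraries of that age. Single libraries were not analysed here, so no SD can be given, and sequencing depth, which FPKM does not hold, is unknown.

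Immediate early genes are transcribed within minutes of a growth factor, stress or wounding signal, without new protein synthesis, and their RNAs are short-lived. Zfp36 proteins bind AU-rich elements in the 3′ untranslated region (3′ UTR) of messenger RNAs and recruit the deadenylase that starts their decay, Zfp36 RNA itself included. Btg and Gadd45 proteins slow the cell cycle, and several of these genes respond to DNA damage through p53.

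Differences are given on the scale of log2(FPKM + 1), 6 months minus 2 months, which understates the difference of weakly expressed genes. A gene was counted when its mean over both ages was at least 1 FPKM and it was not listed at 0 in 1 age only. All 10 genes passed, among 12573 counted genes in all. Among those 12573 genes the quartiles of the log2 difference were -0.10 and 0.08 and the median was -0.01.

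Zfp36, also called tristetraprolin, is the founding member of the zinc finger family that destabilises AU-rich messenger RNAs. Its level was 113 FPKM in 2 month taste cells and 54.6 FPKM in 6 month taste cells. The 6 month level was 48.4% of the 2 month level, and the log2 difference was -1.03. This was the lowest difference among the 10 genes, and 0.636% of all counted genes had a difference this low or lower. In bulk samples, fewer cells of a type and less RNA per cell cannot be told apart.

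Its paralogs Zfp36l1 and Zfp36l2 have the same tandem zinc finger and bind the same kind of element. Zfp36l1 stood at 81.5 FPKM at 2 months against 77.2 FPKM at 6 months, a log2 difference of -0.08. Zfp36l2 stood at 46.1 and 51.0 FPKM, a log2 difference of 0.14, and was the member with a higher value at 6 months. The sign for Zfp36l1 depended on scaling, since its log2 difference was 0.019 when both ages were scaled to the same total without microRNA and small nucleolar RNA genes.

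The share of each paralog in the family was not the same at the 2 ages. Zfp36 held 46.9% of the summed FPKM of the 3 family members at 2 months and 29.9% at 6 months. Zfp36l1 held 33.9% and 42.2%, and Zfp36l2 held 19.2% and 27.9%. Zfp36 was the most abundant of the 3 at 2 months, and Zfp36l1 at 6 months. The ratio of Zfp36 to Zfp36l1 was 1.38 in 2 month taste cells and 0.707 in 6 month taste cells, and these ratios do not depend on how the ages are scaled. The ratio of Zfp36 to Zfp36l2 was 2.45 and 1.07. The summed level of the family was 240.3 FPKM at 2 months against 183 FPKM at 6 months.

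**Figure D1:**
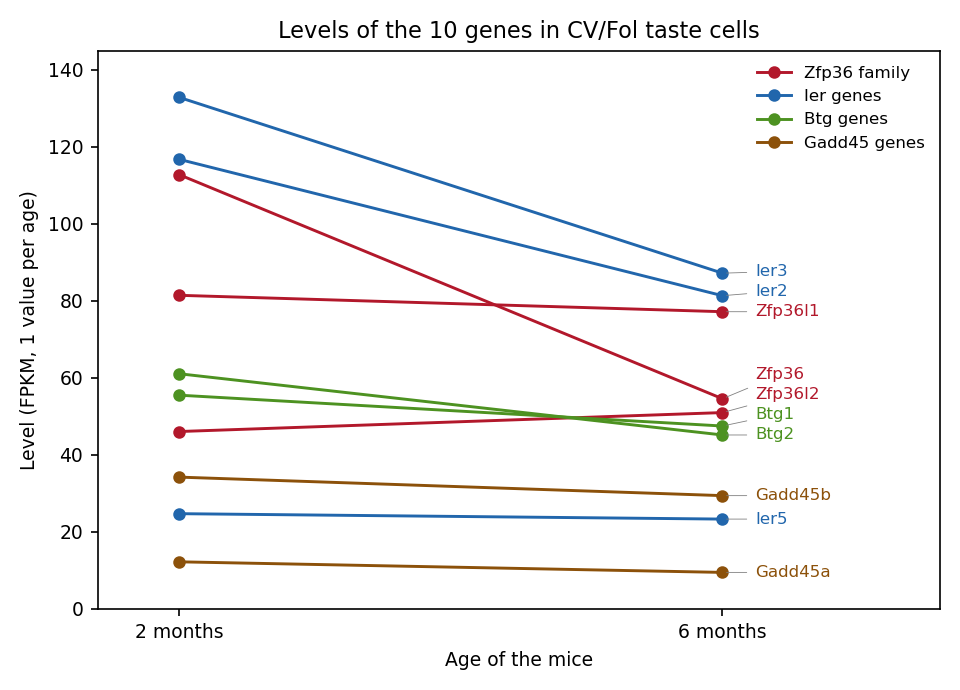
Level of each of the 10 genes in FPKM (vertical axis, linear from 0) at 2 and 6 months, 1 point per gene and age, joined by a line and coloured by family. Zfp36 goes from 113 to 54.6 FPKM, while Zfp36l1 has 81.5 and 77.2 FPKM (its direction depends on scaling) and Zfp36l2 has 46.1 and 51.0 FPKM.

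Ier3 is an early response gene known for effects on cell survival under stress. Its level was 133 FPKM at 2 months against 87.2 FPKM at 6 months, the highest of the 10 genes at both ages. The 6 month level was 65.6% of the 2 month level, with a log2 difference of -0.60. Ier2, a nuclear protein induced by growth factors, had 117 FPKM at 2 months against 81.4 FPKM at 6 months, a log2 difference of -0.52. Ier2 was second in level at both ages, and the ratio of Ier3 to Ier2 was 1.14 at 2 months and 1.07 at 6 months. With no spread between libraries, neighbours in the order of levels cannot be said to differ.

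Ier5, a relative of Ier2 induced by heat shock and radiation, was the weaker member of the group. Its level was 24.7 FPKM at 2 months against 23.3 FPKM at 6 months, and its log2 difference of -0.08 became 0.012 under the scaling without small RNA genes. The ratio of Ier3 to Ier5 was 5.37 at 2 months and 3.74 at 6 months. Summed over Ier2, Ier3 and Ier5, the level was 274 FPKM at 2 months against 192 FPKM at 6 months. The 6 month sum was 69.9% of the 2 month sum, the lowest share among the 4 families.

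Btg2, an antiproliferative gene induced by p53, and Btg1, its close paralog, bind the Cnot7 and Cnot8 deadenylases. Btg2 had 61.1 FPKM in 2 month taste cells and 45.2 FPKM in 6 month taste cells, a log2 difference of -0.43. Btg1 had 55.5 and 47.5 FPKM, a log2 difference of -0.22. The ratio of Btg2 to Btg1 was 1.10 at 2 months and 0.951 at 6 months. With no spread between libraries, the order of the pair cannot be told at either age. Their sum was 117 FPKM at 2 months against 92.7 FPKM at 6 months.

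Gadd45a and Gadd45b encode small stress-induced proteins that bind the Map3k4 kinase and cell cycle proteins. Gadd45b had 34.2 FPKM at 2 months against 29.4 FPKM at 6 months, a log2 difference of -0.21. Gadd45a was the least abundant of the 10 genes at both ages, with 12.2 and 9.47 FPKM and a log2 difference of -0.34. Gadd45b exceeded Gadd45a 2.80-fold at 2 months and 3.11-fold at 6 months. The 2 genes summed to 46.4 FPKM at 2 months against 38.9 FPKM at 6 months.

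Of the 10 genes, 9 had a lower value at 6 months, beside 53.7% of all counted genes. Without small RNA genes in the scaling, where the median difference of all counted genes was 0.08, 7 of the 10 were lower, beside 29.5% of all counted genes, and Zfp36l1 and Ier5 then had values just above 0. The median log2 difference of the 10 genes was -0.28. At a threshold of 1.5-fold of (FPKM + 1), Zfp36 and Ier3 were lower, which is 2 of 10 genes beside 1.34% of all counted genes. None of the 10 was 1.5-fold higher, beside 0.811% of all counted genes. At a smaller threshold, a ratio of 5 to 4, 5 of the 10 were lower, beside 3.87%, and 0 were higher, beside 2.72%. The genes were chosen with this comparison known, so nothing is read from these shares.

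Ier3 lay just inside the 1.5-fold threshold at -0.60, and Ier2 lay just outside it at -0.52. Ier3 left the count under 2 of the scalings tried, with log2 differences of -0.57 when both ages had the same upper quartile and -0.51 when small RNA genes were left out. The count was then 1, made of Zfp36 alone, beside 157 of 12594 and 147 of 13203 counted genes. The summed level of the 10 genes was 678 FPKM at 2 months against 506 FPKM at 6 months, or 74.7% of the 2 month sum. Zfp36 made up 33.9% of that difference, Ier3 26.6% and Ier2 20.7%. The 4 family sums were also lower at 6 months under each of the 3 scalings tried.

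**Figure D2:**
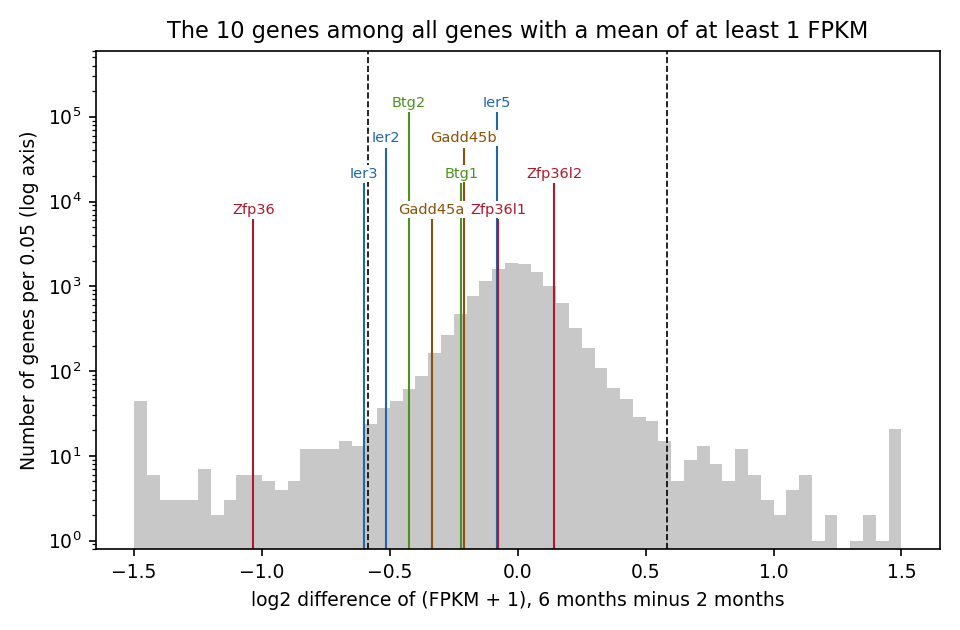
Histogram of the log2 difference of (FPKM + 1), 6 months minus 2 months, over 12573 genes in bins of 0.05 on a log axis, with values beyond the ends of the axis collected in the last bins; coloured lines mark the 10 genes and dashed lines the 1.5-fold threshold. Zfp36 (-1.03) and Ier3 (-0.60) lie beyond the lower dashed line, Zfp36l2 (0.14) is to the right of 0, and Zfp36l1 and Ier5 (both -0.08) cross 0 when scaled without small RNA genes.

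By mean level, Ier3 exceeded 93.9% of all counted genes, Ier2 93.1%, Zfp36 91.9% and Zfp36l1 91.5%. Gadd45a was the lowest of them and exceeded 47.5%, and at 6 months it lay above 43.7% of counted genes. The median level over all counted genes was 11.8 FPKM at 2 months against 11.7 FPKM at 6 months.

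A list of 9 related genes held 7 of the same families and 2 that encode interacting proteins, Ier3ip1 and Gadd45gip1. Of the 7 relatives 4 were counted, 3 of them with a lower value at 6 months, and the median log2 difference was -0.15. Both interacting proteins were lower, and over the 6 counted genes of the whole list the median was -0.11. None of the 6 passed 1.5-fold in either direction, beside 1.34% of all counted genes lower and 0.811% higher. This split and the relatives named next were chosen after their values were seen. Gadd45g, the remaining Gadd45 gene, had 26.3 FPKM at 2 months against 21.2 FPKM at 6 months, a log2 difference of -0.30. With Gadd45g added, the 3 Gadd45 genes summed to 72.8 FPKM at 2 months against 60.1 FPKM at 6 months. Tob1, a Btg relative that also recruits deadenylases, had 34.5 and 28.5 FPKM, and Ier5l had 7.26 and 8.49 FPKM. Zfp36l3 and Btg3 were close to 0 in both ages, and Btg4 was listed at 0 in both.

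In the lists of the machinery through which Zfp36 and Btg proteins act, no gene passed 1.5-fold. Among all counted genes 1.34% were lower and 0.811% higher past it, so short lists can hold none. These shares also stand beside the counts of the lists below. Among 31 genes of deadenylation and messenger RNA decay, 15 were lower and 16 higher at 6 months, with a median log2 difference of 0.00. Among 15 other proteins that bind AU-rich or stem-loop elements, 6 were lower and 9 higher, with a median of 0.03. For 11 kinases and adaptors that act on Zfp36 proteins the median was -0.02, which became 0.01 with the same upper quartile and 0.08 without small RNA genes. For 13 partners of Gadd45 and Btg proteins it was 0.00. That list shares Pabpc1, Cnot7 and Cnot8 with the decay machinery, and the median of both lists is the value of Pabpc1.

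Known AU-rich target messenger RNAs of Zfp36 proteins were counted for 17 of 19 genes, with 9 lower and 8 higher and a median of -0.05. The sign of that median depended on the processing, since it was 0.03 without small RNA genes and 0.13 when a mean of 5 FPKM was asked for. At least 1.5-fold lower were 2 of the 17, beside 1.34% of all counted genes, and 0 were 1.5-fold higher, beside 0.811%. The lower count was 3 with a pseudocount of 0.1 and 1 with the 5 FPKM filter. The 2 as reported were Fos, an AP-1 transcription factor, with 139.7 FPKM at 2 months against 37.5 FPKM at 6 months, and the chemokine Cxcl1, with 3.89 and 2.12 FPKM. This list shares 3 genes, Fos among them, with the list of other immediate early genes described next. Zfp36 stood at 0.807 times the level of Fos at 2 months and at 1.46 times that level at 6 months. Il6, a target described in immune cells, was listed at 0 in both ages.

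Zfp36, the Ier genes and Btg2 are themselves immediate early genes, so 47 other immediate early genes were set beside them. Of these, 44 were counted, 35 with a lower and 9 with a higher value at 6 months, and the median log2 difference was -0.15, or -0.07 without small RNA genes in the scaling. At least 1.5-fold lower were 7 of the 44, beside 1.34% of all counted genes, and 0 were 1.5-fold higher, beside 0.811%. The 5 with the lowest differences were Fos (-1.87), Egr1 (-1.65), Fosb (-1.44), Atf3 (-1.22) and Jun (-1.15), all transcription factors. The other 2 of the 7 were Cyr61 (-0.99) and Dusp1 (-0.68), named after their values were seen.

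Other targets of regulators known to switch on some of the 10 genes were set beside them. The activity of these regulators was not measured, and their part in the values of the 10 genes was not tested. Among 21 p53 target genes, a list that shares 2 genes with the immediate early list, 10 were lower and 11 higher. Of these, 0 passed 1.5-fold, beside 1.34% of all counted genes lower and 0.811% higher. Their median was 0.02, and it was -0.01 with the 5 FPKM filter. Among 18 NF-kappaB target genes, a list that shares 3 genes with the immediate early list, 8 were lower and 10 higher, with a median of 0.02. Cxcl1 alone passed 1.5-fold. At a mean of 5 FPKM it was not counted, and the number at least 1.5-fold lower was 0. Among 14 genes of the stress response through Atf4 and Ddit3, 5 were lower and 9 higher, with a median of 0.08. Atf3 and Chac1, with log2 differences of -1.22 and -0.60, were the 2 past 1.5-fold there. Atf3 is 1 of 3 genes of this list that are also on the immediate early list, and Chac1 no longer passed with the same upper quartile (-0.58) or without small RNA genes (-0.57), and at a mean of 5 FPKM it was not counted.

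A list of 25 genes of the cell cycle and of quiescence held 18 drivers of the cycle and 7 inhibitors, a split made after their values were seen. Of the 18 drivers, 5 were lower, beside 53.7% of all counted genes, and 13 were higher, with a median of 0.14. A link between these values and those of the Btg and Gadd45 genes was not tested. Of the 6 counted inhibitors, 3 were lower and 3 higher, with a median of 0.00. Over all 24 counted genes, 0 passed 1.5-fold and the median was 0.07. Enzyme treatment and handling of tissue can induce immediate early genes and heat shock genes. Of 15 heat shock genes, 8 were lower and 7 higher, with a median of 0.00. Hspa1a, an inducible chaperone, was the gene past 1.5-fold, with 29.8 FPKM at 2 months against 49.0 FPKM at 6 months. Short of 1.5-fold, Hspa1b (0.45), Dnajb4 (0.41) and Dnajb1 (0.29) were higher, and Hspa5 (-0.37), Hspe1 (-0.23) and Hspa8 (-0.14) were lower. These were named after their values were seen. The part of tissue handling in the values of the 10 genes was not tested. Of 14 reference genes 7 were lower and 7 higher, with a median of 0.00.

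Markers of all 3 taste cell types were present at both ages, with 3 of 4 type I, 10 of 10 type II and 8 of 8 type III markers counted. Type I markers summed to 77.6 FPKM at 2 months against 68.2 FPKM at 6 months, with Entpd2 the most abundant. Of the type I markers 2 were lower and 1 higher, with a median log2 difference of -0.19. That median was -0.04 with no filter and 0.05 without small RNA genes in the scaling. In both settings Slc1a3, below 1 FPKM as reported, was counted too. Type II markers summed to 392 and 378 FPKM, with Gng13, the most abundant, at 148 and 126 FPKM, but 6 of the 10 were higher at 6 months and the median was 0.06. Type III markers summed to 50.6 and 53.3 FPKM, with 5 of 8 higher and a median of 0.15. Otop1 was the most abundant of these at 2 months, at 14.4 FPKM, and Pkd2l1 at 6 months, at 13.97 FPKM. None of these 3 lists had a gene past 1.5-fold, beside 1.34% of all counted genes lower and 0.811% higher. For 8 keratins and progenitor markers of taste buds, led by Krt5, the sum was 4397 FPKM at 2 months against 4269.5 FPKM at 6 months. Lower values at 6 months were found for 6 of the 8, with a median of -0.16. The taste bud keratins Krt18 (-0.43), Krt8 (-0.25) and Krt19 (-0.23) were lower, while Krt14 (0.25) and Lgr5 (0.02) were higher. These genes were named after their values were seen, and their part in the values of the 10 genes was not tested.

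Markers of other cells differed between the ages beside the values of the 10 genes. Of 10 counted markers of differentiated keratinocytes, 8 were lower at 6 months, and Krt10 (-1.08), Lor (-0.82) and Ivl (-0.59) passed 1.5-fold, Ivl under none of the 3 scalings tried. Their list summed to 13252.5 FPKM at 2 months against 11272 FPKM at 6 months without Krt4, with Krtdap the most abundant. Krt4 was listed at 7334 FPKM at 2 months and at 0 at 6 months, and Krt13 was listed at 0 in both. Of 8 counted markers of von Ebner and salivary glands, 7 were lower, and the list summed to 209.8 and 104 FPKM. Lipf (-2.43) and Bpifb1 (-1.36) were lower past 1.5-fold, and Dcpp2 (0.80), with a mean under 5 FPKM, was higher past it. With a pseudocount of 0.1 the number of gland markers at least 1.5-fold lower was 4. Lipf was the most abundant of the list at 2 months, while at 6 months it had 14.7 FPKM against 21.2 FPKM for Lyz1. All 7 counted skeletal muscle markers were higher, and 5 passed 1.5-fold, namely Tnnc2, Mb, Acta1, Tnnt3 and Ckm. Each of these 5 had a mean under 5 FPKM, and with a filter at that mean the median of the list was 0.08 instead of 0.78. The muscle list summed to 24.3 FPKM at 2 months against 38.2 FPKM at 6 months, with Tnni2 the most abundant.

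Of 8 fibroblast markers 3 were counted, and 5, the collagens Col1a1, Col1a2 and Col3a1 among them, had means under 1 FPKM. Of the 3 counted, 2 were lower and 1 higher, with a median of -0.03 that became 0.02 without small RNA genes. Dcn was the most abundant and passed 1.5-fold, with 42.0 FPKM at 2 months against 27.3 FPKM at 6 months, while Pdgfra (-0.03) and Vim (0.22), named after their values were seen, did not pass. The list summed to 52.97 and 39.6 FPKM. Dcn no longer passed with the same upper quartile or without small RNA genes, with log2 differences of -0.58 and -0.52. Leukocyte markers, 9 of 10 counted and led by Lyz2 at 293 and 254 FPKM, summed to 460.1 and 416 FPKM. Of the 9, 5 were higher, and the median was 0.01, or -0.21 with the 5 FPKM filter. Endothelial markers, 2 of 6 counted and led by Vwf and both lower, summed to 5.90 and 5.29 FPKM, and Emcn was listed at 0 in 1 age. These other cells may also express the 10 genes, and their part in the result was not tested.

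The 10 genes have short spans. Span was not used to choose them, but their known roles were, and roles and span may be linked. In the RefSeq annotation of GRCm38 the spans of the 10 genes ran from 1199 bases for Ier3 to 5813 bases for Btg1, with a median of 2857.5 bases. The median span of 11226 counted coding genes was 23063 bases. Their messenger RNAs differ less in length, with a median transcript of 2766.5 bases for the 10 genes and 3064 bases for the 11226. Zfp36 lies at chr7:28376784-28379228, Zfp36l1 at chr12:80107760-80113013 and Zfp36l2 at chr17:84183924-84187947, all on the minus strand. Ier3 lies at chr17:35821713-35822911 on the plus strand, Ier2 at chr8:84661331-84662852 and Ier5 at chr1:155096367-155099636 on the minus strand. Btg1 (chr10:96617001-96622813) and Gadd45b (chr10:80930091-80932204) are on the plus strand, and Btg2 (chr1:134074865-134079155) and Gadd45a (chr6:67035096-67037407) on the minus strand. In the GENCODE annotation Ier2 and Ier5 have a single exon, and 8 of the 10 genes have at most 2 exons, beside 786 of the 11226. Gadd45a and Gadd45b have 4 exons each.

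Some reads of 4 members may not be told apart from those of other genes, which overlap them on the opposite strand, a strand the library kit did not keep, or share their sequence elsewhere. Of the 50-base runs in the Zfp36l1 transcript, 57.0% also occurred in other annotated genes, most of them in Gm26669, a long noncoding RNA on the opposite strand. For Gadd45a the share was 16.1%, from E230016M11Rik on the opposite strand, which itself had 2.61 FPKM at 2 months against 2.39 FPKM at 6 months. The share was 1.61% for Zfp36l2, from an overlapping gene on the opposite strand, and 2.63% for Btg1, from Gm14519, which does not overlap it. It was 0 for Zfp36, Ier2, Ier3, Ier5, Btg2 and Gadd45b.

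Zfp36 proteins act through AU-rich elements, and the 3′ UTRs of the 10 genes were searched for them on the transcribed strand. The letters searched were the pentamer ATTTA, the heptamer TATTTAT, which contains it, and the nonamer TTATTTATT, which contains both. The pentamer was in 8 of 10 members, beside 68.7% of 11255 counted genes, the heptamer in 6 of 10, beside 29.9%, and the nonamer in 3 of 10, beside 7.98%. The 3 with the nonamer were Zfp36, Zfp36l1 and Zfp36l2, so each of the 3 Zfp36 genes described here holds in its own messenger RNA the full motif that its protein family is known to bind.

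Length sets how often such short motifs occur, so each 3′ UTR was set beside those whose length was within a ratio of 5 to 4 of its own. Ier3 has 4 heptamers in 613 bases, and 0.533% of 1313 genes of like length have as many or more. Zfp36 has 3 in 774 bases, and 0.896% of 1451 genes of like length have as many or more. For Zfp36l1 and Zfp36l2, each also with 3, the shares were 3.95% and 3.92%. Btg2 and Gadd45a have 1 heptamer each, and 42.3% and 17.5% of genes of like length have 1 or more. For the pentamer, 18.9% of genes of the length of Zfp36 and 2.59% of those of the length of Ier3 have as many or more. A nonamer is in 4.48% of genes of the length of Zfp36, 9.46% for the length of Zfp36l1 and 9.35% for that of Zfp36l2. Ier2 and Gadd45b hold no pentamer, while Btg1, with the longest 3′ UTR at 4166 bases, has 11 pentamers and no heptamer.

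**Figure D3:**
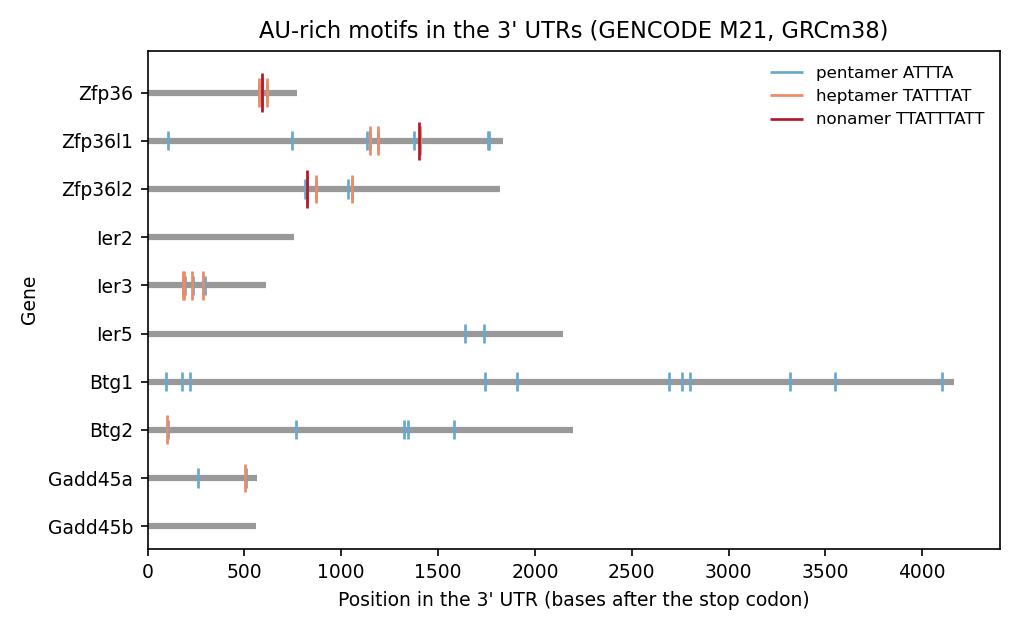
Position of each AU-rich motif (coloured ticks) along the 3′ UTR of the 10 genes (grey bars, in bases after the stop codon, GENCODE M21 annotation of GRCm38). The 3 heptamers of Zfp36 and the 4 of Ier3 lie close together, Ier2 and Gadd45b have no motif, and Btg1 has 11 pentamers spread over 4166 bases.

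The bases around the first nonamer, or where there is none the first heptamer, are shown for the 6 members that hold a heptamer, because these are the letters that Zfp36 proteins are known to bind. Each stretch has 30 bases of the 3′ UTR from GENCODE M21 (GRCm38), is written 5′ to 3′ on the strand of the gene with T for U, and has the motif in capitals. Zfp36 is from chr7:28376950-28376979, Zfp36l1 from chr12:80108166-80108195 and Zfp36l2 from chr17:84184913-84184942, all on the minus strand. Ier3 is from chr17:35822481-35822510 on the plus strand, Btg2 from chr1:134077248-134077277 and Gadd45a from chr6:67035136-67035165 on the minus strand.
Zfp36: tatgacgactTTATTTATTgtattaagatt
Zfp36l1: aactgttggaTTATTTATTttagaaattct
Zfp36l2: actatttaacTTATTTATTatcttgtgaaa
Ier3: tgtctaattaaTATTTATgTATTTATgtat
Btg2: aaatgaagagcTATTTATacatgttttttt
Gadd45a: atgtgaaaggtTATTTATgataaagttttt
Ier3 has 2 heptamers within its 30 bases. A match to the letters describes the sequence and does not show that a protein binds there.

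Promoter sequences, from 250 bases before to 50 bases after the RefSeq start, were matched by symbol for 8 of the 10 genes. No entry was matched for Ier2 and Zfp36l2. Both strands were searched for the CArG box of serum response factor and the NF-kappaB motif, by name, and for CRE (TGACGTCA), AP-1 (TGANTCA), EGR (GCGGGGGCG), the GC box (GGGCGG), the CCAAT box and the TATA box, searched as TATAAA. Of all 32851 promoters of the same length, 1.63% hold a CArG box, 1.79% the CRE, 7.81% the AP-1 motif and 2.91% the EGR motif. The NF-kappaB motif is in 8.46%, the GC box in 35.7%, the CCAAT box in 37.4% and the TATA box in 13.6%. Among the 11789 promoters of counted genes the shares were 1.31% for the CArG box, 3.02% for the CRE, 5.46% for the AP-1 motif and 5.40% for the EGR motif. The NF-kappaB motif was in 10.3% of these, the GC box in 62.1%, the CCAAT box in 37.5% and the TATA box in 7.36%.

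Zfp36 was the member with a CArG box, at -58 to -49 from its RefSeq start, and it also held the EGR motif, at -105 to -97. The CArG box shares its first base with a GC box at -63 to -58. Ier3 was the member with the NF-kappaB motif, at -92 to -83, where it overlaps a GC box at -96 to -91. Btg2 held the CRE at -166 to -159, and Zfp36l1 held the AP-1 motif at -129 to -123. The GC box was in 7 of the 8 promoters, all but that of Zfp36l1, and the CCAAT box was in 7, all but that of Zfp36. The TATA box was in those of Zfp36l1, Btg1 and Gadd45b, and in Zfp36l1 it shares a base with the CCAAT box.

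The promoters of Zfp36, Ier3, Btg2 and Zfp36l1 are shown because each holds a motif that none of the other 7 matched members has. Their values were known when they were chosen. Btg1, Gadd45a and Gadd45b, also lower at 6 months, hold none of the CArG, EGR, CRE, AP-1 and NF-kappaB motifs. A link between these motifs and age was not tested. Sequences are from RefSeq (GRCm38.p6), written 5′ to 3′ on the strand of the gene, with the CArG, EGR, CRE, AP-1, NF-kappaB and TATA box matches in capitals. For Zfp36 only 30 bases around each motif are given, since GENCODE starts its transcript 1025 bases farther upstream. They are chr7:28379314-28379343 with the EGR motif and chr7:28379267-28379296 with the CArG box, on the minus strand. Ier3 is chr17:35821554-35821683 on the plus strand, Btg2 chr1:134079207-134079336 and Zfp36l1 chr12:80113014-80113143 on the minus strand, each of 130 bases. Counted from the RefSeq start, the Ier3 stretch runs from -159 to -30, that of Btg2 from -181 to -52 and that of Zfp36l1 from -130 to -1.
Zfp36, EGR: gagctacgccGCGGGGGCGcgtcccggaag
Zfp36, CArG box: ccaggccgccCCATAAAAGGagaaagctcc
Ier3: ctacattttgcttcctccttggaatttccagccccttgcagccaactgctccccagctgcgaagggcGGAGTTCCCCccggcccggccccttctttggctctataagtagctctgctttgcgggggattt
Btg2: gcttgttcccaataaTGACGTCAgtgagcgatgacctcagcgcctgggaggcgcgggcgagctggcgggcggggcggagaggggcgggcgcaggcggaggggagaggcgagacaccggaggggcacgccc
Zfp36l1: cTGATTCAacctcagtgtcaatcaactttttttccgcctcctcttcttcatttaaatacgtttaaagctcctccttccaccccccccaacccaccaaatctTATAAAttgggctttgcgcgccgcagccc
No binding was measured in these taste cells, and the letters alone do not show use of a motif.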

How the data were processed

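The authors made poly(A)-selected libraries with an unstranded TruSeq RNA kit from 3 pools of CV/Fol taste cells per age, mapped the reads to GRCm38/mm10, quantified genes and compared the ages. The submitters' processing notes name TopHat2 2.0.7, Cufflinks 2.1.1 and Cuffdiff. The deposited values are FPKM, 1 per gene and age, as estimated by the authors over the 3 libraries. Cuffdiff's library normalization is not given in the sources used here. The deposited p-value column holds the authors' own comparison of the ages and was not used. Single libraries were not analysed here, so no test was made, and depth, which FPKM does not hold, is unknown. The sample labels give 2 and 6 months, while the design text names 3 and 6 months in one place. The columns of the table were matched to the ages by the group letters in the sample titles.

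The 10 genes and all gene lists were chosen with earlier results of these data known. Differences were log2(FPKM + 1) at 6 months minus 2 months, over genes whose mean was 1 FPKM or more. Of 12652 such genes, 79 listed at 0 in 1 age only were left out, a choice made after the data were seen, because a value of 0 can be a failed estimate. The table has 27 gene names turned into dates, which were not resolved. Named genes are the 10 genes, from each related list every gene at least 1.5-fold lower or higher (at most the 5 with the largest difference in each direction), and the most abundant gene of each marker list. Other relatives, interacting proteins, keratins, collagens and heat shock genes, Il6, Cyr61, Dusp1, Pdgfra, Vim, Lyz1, Pkd2l1, Lgr5, Slc1a3, and genes named as overlapping or listed at 0 were chosen after their values were seen or for that overlap. Alternatives were a pseudocount of 0.1, no filter, a filter at a mean of 5 FPKM, folds of 5 to 4 and of 2, 3 scalings, and keeping genes at 0 in 1 age. Proteins were not analysed here. Gene spans and promoters are from RefSeq (GRCm38.p6), and exons, transcripts and 3′ UTRs from GENCODE M21 (GRCm38). Motif letters were matched exactly. The calculation was tested on simulated data. The tools were Python 3.11.15 with pandas 2.3.3, numpy 2.4.6 and matplotlib 3.10.9.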

Additional observations from a re-analysis of the deposited data

How the results depend on the processing

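No paired analysis was possible because the deposited table holds 1 value per age and none of a single library, and for the same reason no replicate was left out. The median log2 difference of the 10 genes was -0.28 as reported. It was -0.29 with a pseudocount of 0.1, -0.25 with the same upper quartile in both ages, -0.27 with the median difference of all genes set to 0, and -0.19 when both ages were scaled to the same total without microRNA and small nucleolar RNA genes. That last scaling moved the median of all genes from -0.01 to 0.08, and it turned the sign of Zfp36l1 (0.019) and Ier5 (0.012). The number of the 10 genes at least 1.5-fold lower was 2 as reported, 1 with the same upper quartile and 1 without small RNA genes, beside 157 of 12594 and 147 of 13203 counted genes. It was 5 at a ratio of 5 to 4 and 1 at 2-fold, where the shares of all genes were 3.87% and 0.660%. The count was 2 with a pseudocount of 0.1 (beside 1.80% of all genes), with no filter (1.04%), with a mean of at least 5 FPKM (1.41%), with the median difference set to 0 (164 of 12584), and with genes at 0 in 1 age kept (1.72%), a setting chosen after seeing the data. The median of the known AU-rich targets, -0.05 as reported, was 0.03 without small RNA genes and 0.13 with the 5 FPKM filter. The median of type I markers turned from -0.19 to 0.05 without small RNA genes. Slc1a3, below 1 FPKM as reported, was counted there too, so that turn does not come from the scaling alone. The median of leukocyte markers turned from 0.01 to -0.21 with the 5 FPKM filter. Without small RNA genes the median was higher in every list, for instance 0.10 for the decay machinery and 0.09 for reference genes, both 0.00 as reported, and -0.07 for other immediate early genes, -0.15 as reported. The log2 difference of Zfp36 ran from -1.05 to -0.94 over the settings tried and that of Ier3 from -0.61 to -0.51. No endothelial marker had a mean of 5 FPKM, so that list has no median there. The precision of each value is limited by unknown depth and by the lack of values for single libraries.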
